A study of Mus musculus with 4 samples.

Results

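In a series of 4 arrays on mouse dendritic cells, 2 arrays came from cultures that held ovarian tumour cells and 1 from a culture that held only medium taken from them. The genes described here are those whose signal differed at least 2-fold, in the same direction, between conditioned medium and each of the cocultures. Of 18193 measured genes, 338 met this rule, 224 of them higher in both cocultures (1.23%) and 114 lower in both (0.627%). The values that chose them are given as a description, since each condition was measured on 1 array, without replicates, and both ratios share the 1 conditioned medium array. No error could be computed and no test was run, so "higher" and "lower" describe these arrays only.

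The cells were bone marrow-derived dendritic cells (BMDC) of male C57BL/6 mice aged 6 to 8 weeks, grown for 7 days in 500 U/ml GM-CSF, a cytokine from which marrow progenitors form dendritic cells, macrophages and granulocytes. Control BMDC were kept without 1D8, a line of mouse ovarian surface epithelial cells. In the live coculture BMDC were kept with 1D8 cells at 1 tumour cell to 5 BMDC, and in the irradiated coculture a dose of 50 Gy had been given to the 1D8 cells. In the conditioned medium sample, 1D8 supernatant made up 25% of the volume. All 4 samples, the control included, were sorted by flow cytometry with a fluorescein-labelled antibody to CD80 before RNA was taken, and each condition is 1 biological sample. How many 1D8 cells the sorted samples held, and how long the cells were kept together, is not given in the sources used here.

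Dendritic cells take up antigen, carry its peptides to the surface on MHC molecules and, once stimulated, show them to T cells together with costimulatory proteins such as CD80. A tumour cell can act on them through what it secretes, which a conditioned medium also holds, and through contact, debris, competition for oxygen and glucose or short-lived mediators, which a coculture adds. Type I interferon acts through the receptor subunit IFNAR1, the kinase TYK2 and a complex with STAT2 that binds the interferon-stimulated response element (ISRE) in promoters of antiviral genes. Low oxygen stabilises hypoxia-inducible factor (HIF), which binds a short core motif near genes of glucose uptake, glycolysis and oxygen sensing.

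The arrays were similar in scale, with median signals between 38.7 and 46.8 and 58.8% to 62.5% of the genes above a floor of 44.3, the median of all signals, to which dimmer signals were raised before ratios were taken. Where the dimmer signal lay at or under that floor, the fold can only be bounded from below, and "at least" is written before it. Actb gave a 3'/5' signal ratio, which rises as RNA degrades, between 1.12 and 1.30 over the arrays. The best guide to noise was the agreement of different probe sets of 1 gene on the same arrays. A robust SD of a log2 ratio was taken from the median absolute deviation between pairs of probe sets above the floor on both arrays. It was 0.22 for the live coculture against conditioned medium (4584 genes) and 0.21 for the irradiated coculture (4550 genes). A 2-fold difference makes 1.00. The measure gives little weight to outlying pairs and leaves out dim genes. Error shared by all probe sets of an array and the spread between cultures are not covered. Ratios to the control were noisier by this measure, at 0.40 for live coculture, 0.37 for irradiated coculture and 0.35 for conditioned medium.

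Compared with conditioned medium alone, 320 genes were at least 2-fold higher in the live coculture (1.76%) and 355 in the irradiated coculture (1.95%), while 207 (1.14%) and 225 (1.24%) were at least 2-fold lower. Of the genes that did not meet the rule on both arrays, 96 were higher and 93 lower with live cells only, and with irradiated cells only the numbers were 131 and 111. A single gene was at least 2-fold apart in opposite directions. It was Rtel1, a DNA helicase at telomeres, with signals of 546.3 with live and 118 with irradiated tumour cells, 241.2 in conditioned medium and 152.9 in the control, and it was singled out after its values were seen. Only a bright gene can meet the rule. Among the 8319 genes bright enough in both cocultures 2.69% were called higher, and among the 8725 genes bright enough in conditioned medium 1.31% were called lower. The counts depend on the floor, and with a floor of 12.9 they were 500 higher and 304 lower, with a floor of 155.6, 111 and 51.

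**Figure D1:**
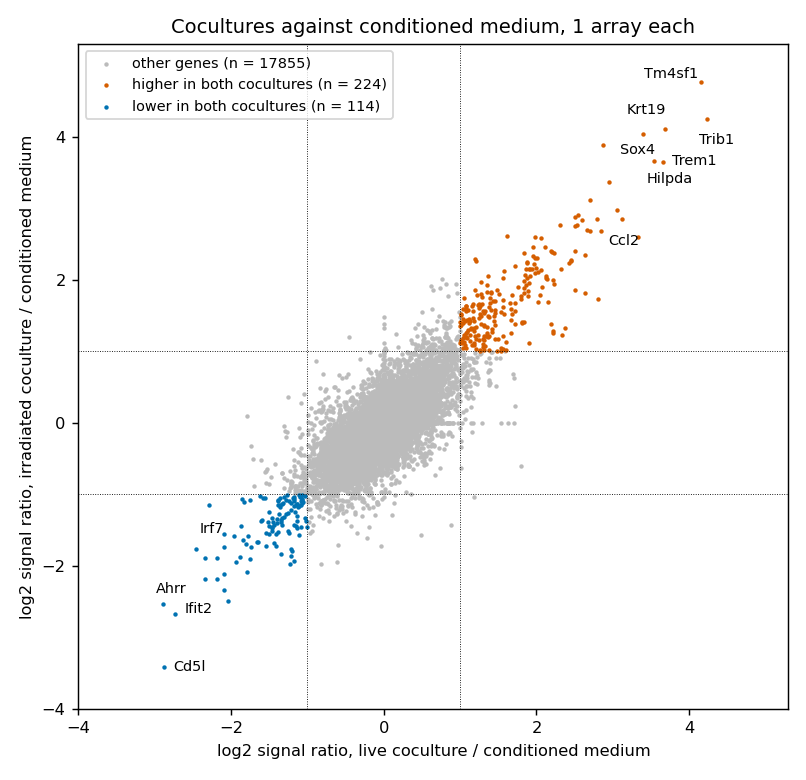
Each point is 1 of 18193 genes, placed by its log2 signal ratio to conditioned medium in the live coculture (horizontal) and in the irradiated coculture (vertical), with 1 array per condition; dotted lines mark 2-fold. The 224 genes called higher lie in the upper right and the 114 called lower in the lower left, and the spread along the diagonal is shared in part because both axes use the same conditioned medium array.

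The called genes differed mostly by moderate folds. The smaller of the 2 folds of a gene had a median of 2.58 among the higher genes and 2.33 among the lower genes, and it reached 4-fold in 39 of the 224 and 8 of the 114. Conditioned medium was at or under the floor in 51 of the 224, and both cocultures were in 20 of the 114. The control entered the rule only through the floor and the choice of the brightest probe set. Against the control, the higher genes had a median log2 ratio of 1.61 in the live and 1.79 in the irradiated coculture and of 0.00 in conditioned medium. For the lower genes these medians were -1.03, -0.93 and 0.46. At least 2-fold above the control were 178 of the 224 in the live coculture (3.37% of all genes), 185 in the irradiated coculture (3.48%) and 18 in conditioned medium (2.3%), where 18 others were at least 2-fold below it (1.41%). Of the 114 lower genes, 58 were at least 2-fold below the control in the live coculture (2.23%) and 52 in the irradiated coculture (2.25%), and 28 were at least 2-fold above it in conditioned medium. These ratios share the coculture and conditioned medium arrays with the rule, so nothing further is read from the counts.

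Some markers of epithelial and mesothelial cells, the kind of cell 1D8 derives from, were higher on both coculture arrays. Of 31 measured markers 7 were called higher and none lower, and their median log2 ratio to conditioned medium was 0.15 in the live and 0.09 in the irradiated coculture, beside 0.00 over all genes. Krt19, a keratin of simple epithelia, had signals of 569.7 with live and 767.4 with irradiated tumour cells, 22.2 in conditioned medium and 8.6 in the control. Only the cocultures were above the floor, and they exceeded conditioned medium at least 12.9-fold (live) and at least 17.3-fold (irradiated). Krt8 and Krt18, which pair with each other in the filaments of simple epithelia, had signals of 66.1, 386.8, 458 and 64.1, and of 9.9, 269, 304.8 and 58.3, in the order control, live coculture, irradiated coculture and conditioned medium, an order kept below wherever 4 signals follow a gene. Both were near or under the floor without tumour cells and well above it with them.

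Wt1, a transcription factor of mesothelium and ovarian surface, had signals of 5.3, 174.3, 218.6 and 17. Upk3b, a uroplakin of mesothelial cells, had signals of 16.9, 237, 207.9 and 6.1. Neither was above the floor on the arrays without tumour cells. Cdh1, the epithelial cadherin, was already measurable there, with signals of 189.5, 930.5, 1102 and 338, and stood 2.75-fold and 3.26-fold over conditioned medium. Tjp1, a scaffold of tight junctions, was at least 3.21-fold and at least 3.47-fold higher. The summed signal of the 31 markers, the called ones included, was 1285, 4103, 4677 and 1664, and 9, 19, 19 and 9 of them exceeded the floor. Epcam, Krt7 and Msln, other markers of the list, had signals of 103.8, 107.2, 239 and 168.5, of 6.1, 35.9, 29.4 and 3.5 and of 13.4, 61.2, 73.5 and 17.8, and none of them was called.

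Of 53 matrix and mesenchymal markers, 7 were called higher and none lower. Their median log2 ratio to conditioned medium was 0.00 in the live and 0.11 in the irradiated coculture. The ratio was above 0 for 27 and 29 of them and below 0 for 13 and 10. The summed signal of the list was 28648 in the control, 39555 in the live and 44947 in the irradiated coculture and 34186 in conditioned medium. In the same order, 23, 37, 36 and 31 of the markers exceeded the floor. Tm4sf1, a surface protein of epithelial, endothelial and many tumour cells, had signals of 788.6 with live and 1212 with irradiated tumour cells, 22.2 in conditioned medium and 3.2 in the control. It was at least 17.8-fold and at least 27.4-fold higher than in conditioned medium, although a dimmer probe set of the gene had log2 ratios of only 0.28 and 0.00. Sparc, a secreted matrix glycoprotein, had signals of 49, 224.6, 319.6 and 58.1, and a further probe set gave log2 ratios of 3.18 and 3.23 while another gave 0.49 and 0.17. Col4a1 and Col4a2, chains of basement membrane collagen that share a promoter region, had signals of 56.5, 197.2, 251.5 and 75.2, and of 38.1, 155.6, 171.2 and 45.9. Both chains were higher with tumour cells of either kind. Cald1, an actin-binding protein, was 4.06-fold and 3.24-fold higher, Igfbp7, a secreted binding protein, 2.76-fold and 2.90-fold, and Dcn, a small proteoglycan, 2.58-fold and 4.15-fold. Another probe set of Igfbp7 had log2 ratios of -0.44 on both arrays.

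These markers differed between the same coculture and conditioned medium arrays that the rule used for every group described next. Against the control, not every group followed them. The epithelial and mesothelial markers had a median log2 ratio to the control of 0.19 in the live and 0.33 in the irradiated coculture. In conditioned medium it was 0.00. For the type I interferon genes described below these medians were -0.35, -0.23 and 0.51. The part of the markers in the other values was not tested, and a sample of 1D8 cells alone was not analysed here. In a bulk sample, a change in how many cells of a type are present and a change in the RNA per cell cannot be told apart.

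**Figure D2:**
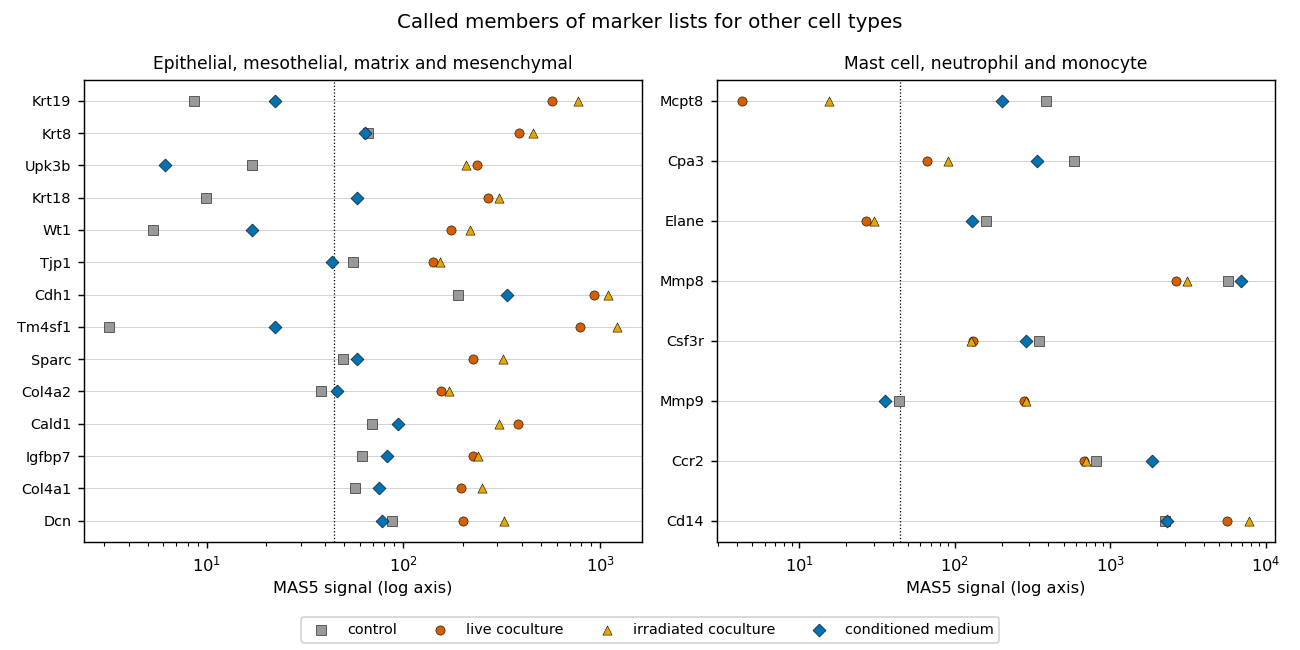
MAS5 signal on a log axis for the called members of marker lists, 1 symbol per array (squares control, circles live coculture, triangles irradiated coculture, diamonds conditioned medium); the dotted line is the floor of 44.3. Epithelial, mesothelial and matrix markers lie to the right in both cocultures, such as Krt19 at 569.7 and 767.4 against 22.2. The basophil protease Mcpt8, the mast cell and basophil protease Cpa3 and 3 neutrophil genes lie to the left.

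The largest group among the higher genes was the response to low oxygen. Of 32 measured hypoxia response genes, 13 were called higher and none lower, with a median log2 ratio to conditioned medium of 0.78 in the live and 1.10 in the irradiated coculture. Hilpda, a lipid droplet protein that HIF induces, had signals of 2225 with live and 2404 with irradiated tumour cells, 190.7 in conditioned medium and 142.2 in the control. The cocultures stood far above the other arrays, 11.7-fold in the live and 12.6-fold in the irradiated coculture over conditioned medium. Egln3, a prolyl hydroxylase that marks HIF for destruction and is itself induced by it, had signals of 39.8, 1055, 1412 and 162.8, and its second probe set gave log2 ratios of 2.61 and 3.28. Here conditioned medium also lay above the control, but the cocultures were 6.48-fold and 8.68-fold higher still. Egln1, the main oxygen-sensing hydroxylase of this family, was 2.63-fold and 3.18-fold higher.

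Other called members act on mitochondria, protein folding and collagen. Bnip3, a receptor that directs mitochondria to degradation, had signals of 244.7, 2863, 3719 and 737.5 and was 3.88-fold and 5.04-fold higher than in conditioned medium. Ero1a, an oxidase that forms disulfide bonds in the endoplasmic reticulum, had signals of 581.5, 3204, 4092 and 872. For both genes conditioned medium lay between the control and the cocultures. P4ha1, P4ha2 and Plod2, hydroxylases that modify collagen chains, were 2.49-fold, at least 4.65-fold and at least 2.74-fold higher in the live coculture and 2.59-fold, at least 3.99-fold and at least 2.99-fold higher in the irradiated coculture. Vegfa, the growth factor of blood vessels, had signals of 453.6, 1706, 2504 and 806.6, and its other probe set gave log2 ratios of 1.68 and 1.92. Fam162a, a mitochondrial protein linked to hypoxic cell death, was 3.76-fold and 4.45-fold higher, and Ankrd37, a HIF target, 4.13-fold and 3.47-fold higher. Not all listed targets met the rule. Hif1a itself had signals of 1748, 2768, 4579 and 2345, Car9 of 129.6, 150.5, 150.8 and 179.1 and Adm of 22.2, 45.2, 38.7 and 84. Adm, a vasodilator peptide, and Car9, a carbonic anhydrase, were highest in conditioned medium, and Hif1a, the regulated subunit of HIF, was highest in the irradiated coculture.

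Glucose uptake and glycolysis showed the same pattern more weakly, with 7 of 19 measured genes called higher, 1 lower and median log2 ratios of 0.70 and 0.87. Slc2a1, the glucose transporter GLUT1, had signals of 2214 with live and 2659 with irradiated tumour cells, 568.5 in conditioned medium and 591.5 in the control. Conditioned medium was close to the control there, and 2 other probe sets gave log2 ratios of 1.98 to 2.24. Slc16a3, the exporter of lactate, had signals of 333.4, 1828, 1805 and 513.3. Gys1, glycogen synthase, was 3.68-fold and 4.73-fold higher, and Pgm1, which interconverts glucose phosphates, 2.17-fold and 2.74-fold. A dimmer probe set of Pgm1 gave log2 ratios of -0.65 and 0.83, so it was lower in the live coculture. The call of Pgm1 was lost with the mean over probe sets. Hk2, the inducible hexokinase, was 2.50-fold and 2.95-fold higher, Tpi1, triosephosphate isomerase, 2.12-fold and 2.40-fold, and Pdk1, which turns pyruvate away from mitochondria, 2.02-fold and 2.21-fold. The exception was Slc2a3, the glucose transporter GLUT3, with signals of 208.4, 142.9, 110.9 and 303.8, lowest in the cocultures. Pgk1, an abundant glycolytic kinase, had signals of 6824, 8038, 9088 and 7352 and was not called. Beside both groups, the summed signal of epithelial and mesothelial markers was 4103 and 4677 in the cocultures against 1664 in conditioned medium. That sum includes the 7 markers that the rule itself chose as higher, and its part was not tested.

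Promoter sequences were read from a RefSeq table of mouse assembly GRCm38.p6 that gives windows of 250 bases before and 50 after a start. Of the 18193 genes 14452 matched it, some with several windows. Here and below, a promoter means all windows of 1 gene, and it holds a motif if any window does. Called higher genes had more windows per gene than all matched genes and than called lower genes. They thus had more chances to match each motif, and the shares were not adjusted for this. The HIF core was searched as ACGTG or GCGTG on both strands, so that a CACGTG run counts on both. It is short, and 59.3% of all matched promoters held it. It was present in 12 of 12 matched promoters of the called hypoxia genes, in 27 of 28 of all measured hypoxia genes (96.4%), in 69.5% of the promoters of called higher genes and in 42.6% of those of called lower genes. The stretches below, upstream of the start, are shown for 3 of these genes because their matches lie close together; capitals mark the core or its reverse complement.
Bnip3, chr7:138909522-138909631, minus strand: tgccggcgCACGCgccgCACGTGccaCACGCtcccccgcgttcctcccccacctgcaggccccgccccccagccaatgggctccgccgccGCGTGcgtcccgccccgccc
P4ha2, chr11:54100765-54100874, plus strand: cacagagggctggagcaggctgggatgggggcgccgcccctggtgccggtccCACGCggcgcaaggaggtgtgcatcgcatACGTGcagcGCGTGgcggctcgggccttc
Slc2a1, chr4:119108619-119108728, plus strand: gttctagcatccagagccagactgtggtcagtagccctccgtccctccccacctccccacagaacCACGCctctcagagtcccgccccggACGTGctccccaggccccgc
The stretch of Bnip3 holds 5 matches, that of P4ha2 holds 3 and that of Slc2a1 holds 2. A match to these letters is a description of the sequence, and no binding was measured.

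Immediate early genes, which cells switch on within minutes of a growth factor or stress signal, were the next group. Of 31 measured, 11 were called higher and none lower, with median log2 ratios of 0.78 and 0.93. Among transcription factors, Fosb, a partner in the AP-1 complex, had signals of 1544 with live and 1826 with irradiated tumour cells, 267.1 in conditioned medium and 259.8 in the control. Myc, a regulator of growth, had signals of 101.6, 536, 437.7 and 86.2, and Klf6, a zinc finger factor, of 1447, 2235, 2435 and 1060.1. In Fosb and Myc the control and conditioned medium lay close together, far below the cocultures, while Klf6 was lowest in conditioned medium. Fosl2, another AP-1 partner, was 2.64-fold and 3.52-fold higher. The nuclear receptors Nr4a1 and Nr4a2 had signals of 166.7, 1436, 678 and 204.5, and of 61.9, 378.5, 212.9 and 60.7. In both the live coculture was the highest. Among the phosphatases that switch off MAP kinases, Dusp1 was 4.04-fold and 4.33-fold higher, and Dusp5 5.45-fold and 4.85-fold. Egr1, a classical member, had signals of 1688, 5220.0, 5372 and 2750.5 and was not called. Conditioned medium also lay above the control there.

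Egr3, a zinc finger factor, had signals of 73.8, 353.8, 171.3 and 68 at its brightest probe set. A further probe set of Egr3 gave log2 ratios of -0.94 and -0.67, so no direction is given for it. Maff, a small basic leucine zipper factor, had signals of 29.3, 205.9, 108.2 and 22.8 and was under the floor without tumour cells.

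**Figure D3:**
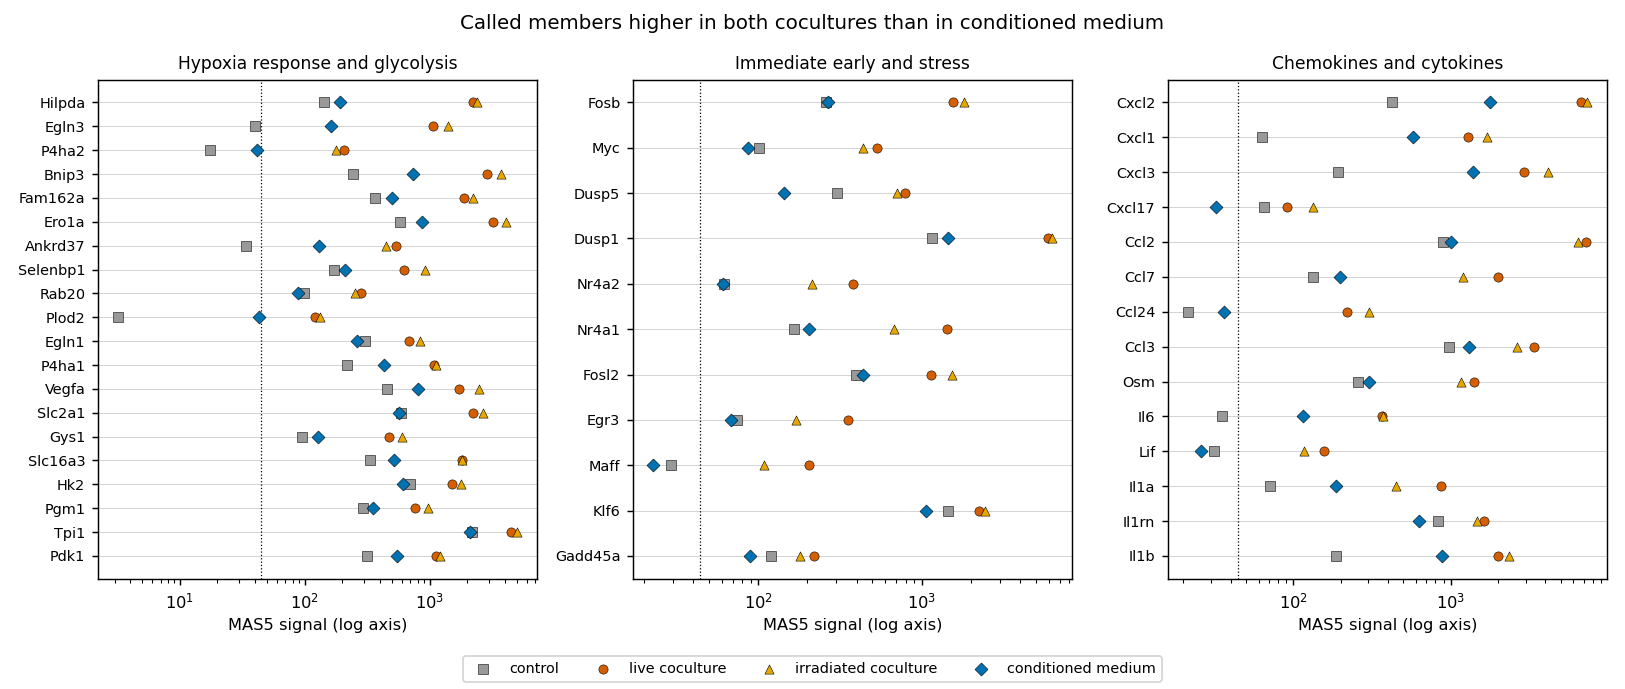
MAS5 signal on a log axis for the called higher members of 3 groups of lists, 1 symbol per array (squares control, circles live coculture, triangles irradiated coculture, diamonds conditioned medium); the dotted line is the floor of 44.3. In every row both coculture symbols lie to the right of the diamond because the rule chose the genes so, and the square, which the rule did not use, lies near the diamond for Slc2a1, Fosb and Ccl2 and far to its left for Cxcl1, Cxcl2 and Cxcl3.

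Chemokines, which draw leukocytes along a gradient, were called in both families. Of 15 CXC chemokines 4 were higher, and of 18 CC chemokines 4 were higher, with none lower in either family. The medians were 0.00 (live) and 0.30 (irradiated) for CXC and 0.06 and 0.19 for CC. Ccl2, the main attractant of monocytes, had signals of 7241 with live and 6479.6 with irradiated tumour cells, 1007 in conditioned medium and 895.8 in the control. Conditioned medium was close to the control, and the cocultures were 7.19-fold and 6.43-fold above it. Ccl7, its neighbour in the genome, which also attracts monocytes, had signals of 133, 1995, 1199 and 197.9. Ccl3, an attractant of monocytes and T cells, was 2.60-fold and 2.04-fold higher, close to the threshold in the irradiated coculture. Ccl24, an attractant of eosinophils, had signals of 21.4, 220.1, 302 and 36.1 and was under the floor without tumour cells.

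In the neutrophil attractants conditioned medium itself lay above the control. Cxcl2 had signals of 6714 with live and 7402 with irradiated tumour cells, 1782 in conditioned medium and 423.9 in the control. Cxcl1 had signals of 62.7, 1293, 1701 and 576.4 and Cxcl3 of 191.6, 2934, 4174 and 1385. All 3 were lowest in the control and highest in the cocultures, and the cocultures exceeded conditioned medium by 3.77-fold and 4.15-fold for Cxcl2, 2.24-fold and 2.95-fold for Cxcl1, and 2.12-fold and 3.01-fold for Cxcl3. Cxcl17, a mucosal chemokine, was dim throughout, with signals of 65.3, 90.7, 133.8 and 32.2. Among receptors, Ackr3, which takes up CXCL12, had signals of 12.6, 325.4, 657.8 and 10.3, and Ccrl2, which holds the attractant chemerin at the surface, of 266.5, 877.8, 509.3 and 234.5. Both were highest with tumour cells, Ackr3 with irradiated and Ccrl2 with live ones. Ccr2, the receptor for CCL2, was lower by the same rule, with signals of 803.8, 675.6, 701.3 and 1839.8. At this brightest probe set the cocultures were near the control. Another probe set had signals of 93.4, 369.4, 402.4 and 1097.9, with the cocultures above the control. Further ones gave log2 ratios of -1.47 and -0.33, and of -0.33 and 0.02. The call was lost with the mean over probe sets.

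Of 21 inflammatory cytokines 6 were called higher and 1 lower, and the median over the list was 0.00 on both arrays. Il6 had signals of 365.3 with live and 369.1 with irradiated tumour cells, 115.8 in conditioned medium and 35 in the control. Both cocultures were close together and 3.15-fold and 3.19-fold over conditioned medium. Osm and Lif, cytokines of the same family that signal through gp130, had signals of 259, 1405, 1158 and 300.9, and of 31.4, 155.5, 117.5 and 26. The 2 genes are adjacent in the genome, and neither differed 2-fold between control and conditioned medium. Il1a and Il1b, the agonists of the IL-1 receptor, had signals of 70.6, 870.1, 448.1 and 187.2, and of 185.2, 1989.7, 2349 and 875.1. Their antagonist Il1rn was also called, at 2.59-fold and 2.31-fold. The 1 lower gene was Il12b, the shared subunit of IL-12 and IL-23 that directs T cell help, with signals of 99.6, 43.7, 41 and 119.8. The cocultures were under the floor, and a second probe set of Il12b gave log2 ratios of only -0.20.

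An NF-kappaB motif, GGG, any 2 bases and TTTCC on either strand, was rarer than the HIF core and stood in 1.89% of all matched promoters. It was found in 10 of 164 matched promoters of called higher genes (6.10%), among them all 3 matched promoters of called CXC chemokines. The stretches of 2 of these are printed because each holds a pair of matches, in capitals, within a few bases of each other; that of Il6 is added as the cytokine with 1 match.
Cxcl1, chr5:90891089-90891198, plus strand: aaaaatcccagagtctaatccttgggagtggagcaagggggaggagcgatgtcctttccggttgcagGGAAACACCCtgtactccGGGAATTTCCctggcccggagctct
Cxcl2, chr5:90903736-90903845, plus strand: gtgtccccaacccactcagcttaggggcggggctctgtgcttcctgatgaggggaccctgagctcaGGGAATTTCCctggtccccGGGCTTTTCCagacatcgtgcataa
Il6, chr5:30012985-30013094, plus strand: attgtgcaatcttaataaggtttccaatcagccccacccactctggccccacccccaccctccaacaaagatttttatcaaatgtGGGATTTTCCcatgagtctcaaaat
Of 14 measured feedback genes of NF-kappaB, 1 was called, Nfkbiz, a nuclear cofactor, with signals of 155.2, 919.9, 991.3 and 380.8. A second probe set of Nfkbiz gave log2 ratios of 1.00 and 0.85, but yet another went the other way at -1.91 and -1.20, so no direction is given for it.

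Beyond these lists, the genes with the largest folds included signalling adaptors and surface receptors. Trib1, a pseudokinase that targets transcription factors of the C/EBP family for degradation, had signals of 831.5 with live and 847.2 with irradiated tumour cells, 17.8 in conditioned medium and 15.2 in the control. It was at least 18.8-fold and at least 19.1-fold higher and led the ranking by the smaller fold, but its other probe set gave log2 ratios of only 0.14 and 0.32. Trem1, a receptor that amplifies inflammatory signals in myeloid cells, had signals of 1259.9 with live and 1262 with irradiated tumour cells, 100.2 in conditioned medium and 92.8 in the control. Its second probe set gave log2 ratios of 3.88 and 3.74, and control and conditioned medium were close to each other. Trem3, the neighbouring gene of the same family, had signals of 42.4, 236.4, 225.3 and 106.2 and was also called.

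Sox4, a transcription factor of progenitor and tumour cells, had signals of 95, 1452, 2274 and 137.9, and 4 other probe sets gave log2 ratios from 1.89 to 3.42 while another gave 0.29 and 0.31. Ets2, a transcription factor downstream of MAP kinases, had signals of 269.9, 1952, 2049 and 282.9. Rgs1, which dampens chemokine receptor signalling, had signals of 989.5, 5432, 5113 and 652.2, lowest in conditioned medium. Cdc42ep2, an effector of the GTPase CDC42, had signals of 85.9, 418.1, 562.8 and 54.3, and Ildr2, a membrane protein of the immunoglobulin family, of 33.6, 288.1, 285.8 and 25.7. In each of these genes the cocultures exceeded both other arrays.

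Secreted factors and enzymes were called as well. Hbegf, a ligand of the epidermal growth factor receptor, had signals of 70.5, 385.8, 320.7 and 41.6, and Inhba, a subunit of activin, of 311.2, 963.6, 764.5 and 294.1. With Vegfa these were the 3 of 22 growth factor ligands called. Mmp9, a protease of basement membrane, had signals of 44, 280.4, 288.5 and 35.7 and was above the floor only in the cocultures. Ptgs2, the inducible cyclooxygenase, had signals of 82.2, 1054, 1038 and 304.6, with conditioned medium between the control and the cocultures. Nt5e, the ectonucleotidase CD73 that forms adenosine, had signals of 34.7, 320.1, 458.9 and 76.5. Odc1, which starts polyamine synthesis, was 2.56-fold and 2.52-fold higher, and Slc7a2, an arginine transporter, 2.10-fold and 2.69-fold. Arg1, which consumes arginine, had signals of 427.2, 8117, 8843 and 5847 and was not called, as conditioned medium was already high. Cd14, the co-receptor for bacterial lipopolysaccharide, was 2.43-fold and 3.38-fold higher.

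In some called genes conditioned medium lay below the control. Hsph1, a large heat shock protein, had signals of 400.2 with live and 427.6 with irradiated tumour cells, 153.3 in conditioned medium and 422.3 in the control. Plk2, a polo-like kinase induced by stress, had signals of 1375, 2202, 1613 and 498.1. In Hsph1 the cocultures were close to the control, and in Plk2 the live coculture exceeded it. Fen1, a flap endonuclease of DNA replication, had signals of 796.5, 1593, 1543 and 481.8, but its other probe set gave log2 ratios of -0.16 and -0.64, and it was the only one of 33 DNA replication genes called.

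The largest group among the lower genes was the type I interferon response. Of 51 measured genes, 15 were called lower and none higher, and the median log2 ratio to conditioned medium was -0.89 in the live and -0.74 in the irradiated coculture. The ratio was below 0 for 47 and 46 of the 51. Against the control the same 51 genes had medians of 0.51 in conditioned medium, -0.35 in the live and -0.23 in the irradiated coculture. Ifit2, which blocks translation of viral RNA, had signals of 51.9 with live and 53.9 with irradiated tumour cells, 345.3 in conditioned medium and 66.2 in the control. The cocultures were slightly below the control, and conditioned medium was 6.65-fold and 6.41-fold above them.

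Regulators and effectors of the pathway were both in the group. Irf7, the factor that amplifies interferon production, had signals of 268.7 with live and 290.8 with irradiated tumour cells, 941.6 in conditioned medium and 287.3 in the control. Stat2, part of the complex that binds the ISRE, had signals of 153.4, 149.3, 176.2 and 456.8, and its other probe set gave log2 ratios of -2.41 and -2.02. For Irf7 and Stat2 the control and both cocultures lay together, and only conditioned medium stood out. Usp18, which restrains the receptor, had signals of 336.8, 160.3, 183.5 and 549.5. Of the oligoadenylate synthetase family, which senses viral double-stranded RNA, 3 of the 5 measured members on the list were called. Oas2 had signals of 132.9, 91.6, 75 and 318.2, Oas3 of 315.5, 180.9, 235.1 and 702.5 and Oasl2 of 291.1, 164, 199.8 and 743.5. All 3 were highest in conditioned medium and lower in the cocultures than in the control. Oas1a and Oasl1, the other listed members, were not called, nor was the RNA sensor Ifih1, with signals of 374.1, 318.7, 327.1 and 559.5. Oas1c, a member of that family outside the list, was called lower.

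Rtp4, a chaperone of receptors that is induced by interferon, was 5.06-fold and 4.53-fold lower in the cocultures, and Mx1, a GTPase that blocks influenza virus, 3.14-fold and 3.19-fold lower. Ddx60, a helicase that promotes RNA sensing, had signals of 59.2, 83.6, 75.7 and 218.6. Rsad2, the antiviral enzyme viperin, had signals of 399.6, 150.9, 178.1 and 457.8, and 2 further probe sets gave log2 ratios from -1.41 to -0.78. In Rsad2 conditioned medium was close to the control and the cocultures were below both. Xaf1, a protein that promotes cell death, was 3.60-fold and 3.13-fold lower, while a dimmer probe set gave log2 ratios of 0.43 and 0.34. Others among the lower genes were outside the list. Ifi213, an interferon-induced DNA-binding protein, had signals of 66.8, 34, 34.7 and 170 and Ms4a4c, a membrane protein of leukocytes, of 155.1, 103, 92.6 and 345.7.

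Ifnar1, a receptor subunit, had signals of 477.8, 324.9, 398.2 and 433.5, and Tyk2, the kinase bound to it, of 397.2, 457.8, 439.7 and 393.4. Tlr3, the sensor of double-stranded RNA named in the title of the series, had signals of 80.6, 79.8, 117.8 and 91.9. At these probe sets none of the 3 differed 2-fold from conditioned medium on either array. A dimmer probe set of Ifnar1 was lower by the rule, with signals of 131, 60.8, 81.3 and 180 and log2 ratios of -1.57 and -1.15, so the probe sets of this gene disagree in size. Socs3, an inhibitor of cytokine signalling also named there, had signals of 399.9, 953.9, 1486 and 705.7. It was 1.35-fold higher in the live and 2.11-fold higher in the irradiated coculture, and so was not called. Of 27 genes of interferon induction and signalling 1 was called, Socs2, another inhibitor of cytokine receptors, 2.17-fold and 2.63-fold higher. A further probe set of Socs2 gave log2 ratios of 0.99 and 1.29, but dimmer ones gave -0.36 and 0.05, -0.30 and 0.02, and 0.00 and 0.53. The call of Socs2 was lost with the mean over probe sets. Of 18 interferon gamma response genes 1 was called, Ciita, lower.

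The ISRE was searched as GAAA, any 2 bases and GAAA on both strands, and overlapping matches counted once for a promoter. It stood in 524 of 14452 matched promoters (3.63%). Among called lower genes it was found in 14 of 94 matched promoters (14.9%), against 6 of 164 among called higher genes (3.66%). In the interferon list 6 of 10 matched promoters of called members held it, and 18 of 39 of all measured members (46.2%), so the called members were not the only ones. The 3 stretches below come from called genes with the motif near or repeated before the start; capitals mark the motif or its reverse complement.
Ifit3, chr19:34583322-34583431, plus strand: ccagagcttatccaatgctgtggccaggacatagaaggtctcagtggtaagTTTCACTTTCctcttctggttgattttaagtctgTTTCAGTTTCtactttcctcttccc
Ddx60, chr8:61927977-61928086, plus strand: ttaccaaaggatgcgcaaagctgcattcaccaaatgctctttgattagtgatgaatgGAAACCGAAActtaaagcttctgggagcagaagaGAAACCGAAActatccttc
Oas3, chr5:120777710-120777819, minus strand: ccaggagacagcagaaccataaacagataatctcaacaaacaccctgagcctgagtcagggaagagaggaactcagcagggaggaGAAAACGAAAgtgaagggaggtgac
Ifit3 and Ddx60 each hold 2 matches in the stretch and Oas3 holds 1. Their signals were 96.8, 50.2, 42 and 146.4 for Ifit3, 59.2, 83.6, 75.7 and 218.6 for Ddx60 and 315.5, 180.9, 235.1 and 702.5 for Oas3, all highest in conditioned medium. An AP-1 motif, TGANTCA, which reads the same on both strands, stood in 11.6% of the promoters of higher genes, 14.9% of those of lower genes and 7.54% of all.

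**Figure D4:**
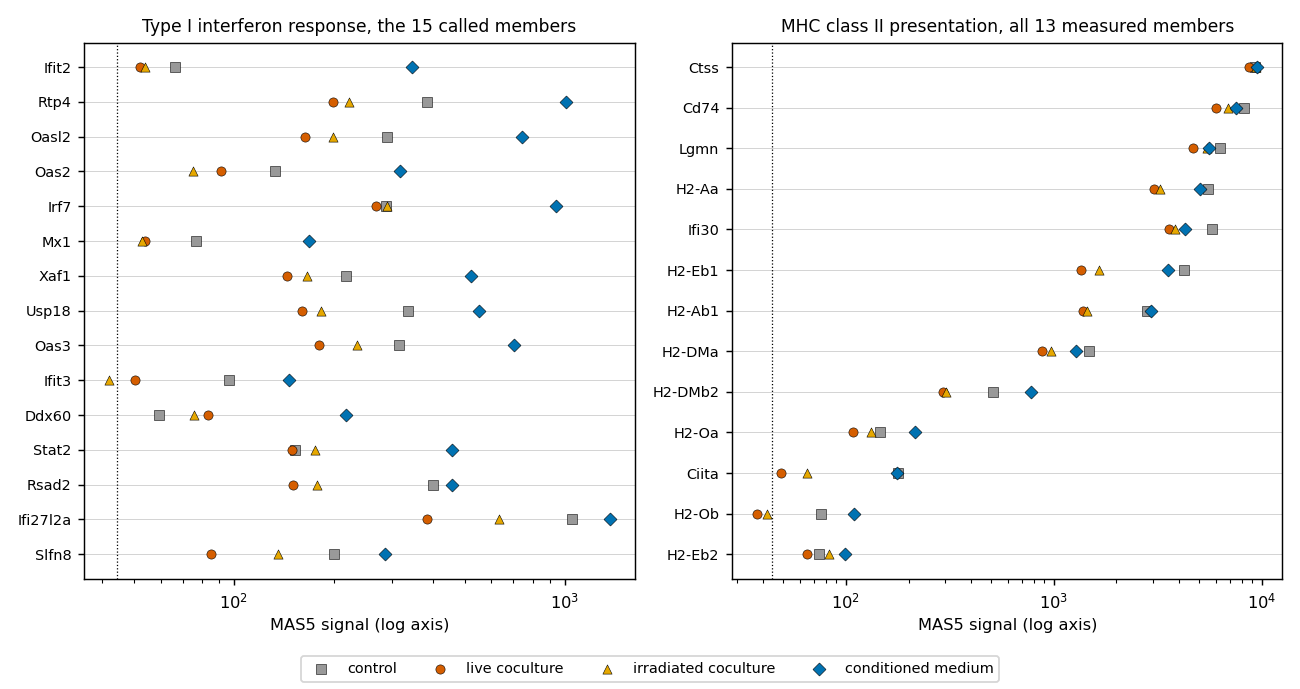
MAS5 signal on a log axis for the 15 called type I interferon response genes (left) and all 13 measured genes of MHC class II presentation (right), 1 symbol per array (squares control, circles live coculture, triangles irradiated coculture, diamonds conditioned medium); the dotted line is the floor of 44.3. On the left the diamond is the highest symbol in all 15 genes, and on the right the diamond and the square lie close together for the bright genes, with the cocultures to the left of both, as for H2-Eb1 at 1348 and 1653 against 3528.

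Antigen presentation on MHC class II was the other lower group. Of 13 measured genes 5 were called lower and none higher, and all 13 had a ratio below 0 on both arrays, with medians of -0.74 and -0.65. H2-Eb1, a beta chain of the class II molecule, had signals of 1348 with live and 1653 with irradiated tumour cells, 3528 in conditioned medium and 4244 in the control. H2-Ab1, the other beta chain, had signals of 2813, 1382, 1444 and 2931, with log2 ratios from -1.57 to -0.97 at 2 further probe sets. Conditioned medium was near the control for both chains, and the cocultures were 2.62-fold and 2.13-fold lower for H2-Eb1. H2-Ab1 lay close to the threshold, at 2.12-fold and 2.03-fold, and was not called with a pseudocount in place of the floor or after median centring of the arrays. Ciita, the coactivator on which class II transcription depends, had signals of 178.4, 48.5, 64.9 and 176.7. H2-DMb2 and H2-Ob, chains of the molecules that edit the peptides bound to class II, were 2.62-fold and at least 2.48-fold lower in the live coculture and 2.54-fold and at least 2.48-fold lower in the irradiated one. None of the 5 reached 3-fold on both arrays.

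The alpha chain H2-Aa had signals of 5542, 3036, 3241 and 5072, and the invariant chain Cd74 of 8171, 6054, 6864 and 7509.6. Neither was called, and Cd74 was only 1.24-fold and 1.09-fold lower than in conditioned medium. MHC class I was not in the group, as none of 12 measured genes was called. Its ratios were also mostly below 0, in all 12 genes in the live and 11 in the irradiated coculture, with medians of -0.34 and -0.30. Of 23 genes of maturation and costimulation 2 were higher (Socs2 and Clu, a secreted chaperone) and 2 lower (Il12b and Traf1, an adaptor of tumour necrosis factor receptors). Cd80, whose protein was the basis of the sort and which is not independent of it, had signals of 85.5, 378.2, 325.8 and 201.3 and was not called at its brightest probe set. Another probe set of Cd80 was higher by the rule, with signals of 34.8, 252.4, 171.6 and 61.1 and log2 ratios of 2.05 and 1.49, and a dimmer one gave 0.52 and 0.38.

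Markers of the labelled cell type were present on all arrays. Itgax, the integrin CD11c of dendritic cells, had signals of 2534, 1921, 1388 and 2394, and the macrophage genes Csf1r and Lyz2 of 7521, 6233, 6649 and 7014 and of 7484, 8062, 8328 and 7715. Markers of both cell types were thus measured in every sample. The summed signal of 18 dendritic cell markers was 31642, 22255, 23322 and 29417, and that of 11 macrophage and monocyte markers was 30273, 32078, 36226 and 32141. H2-Ab1 and H2-Eb1 were the only called dendritic cell markers, and of the macrophage list Cd14 was higher and Ccr2 lower. Class II genes are part of the first sum, and the part of a shift between these cell types in the lower class II signals was not tested.

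The other lower genes included markers of further marrow cells and of lipid handling. Mcpt8, a basophil protease, had signals of 4.3 with live and 15.5 with irradiated tumour cells, 201 in conditioned medium and 385.6 in the control. Cpa3, a protease of mast cells and basophils, had signals of 582.6, 66.7, 90.5 and 336.6. Both were also lower than in the control, and they were the only 2 of 16 such markers called. The summed signal of the 16 was 1614, 474.2, 623.1 and 1117. Of 18 neutrophil markers 3 were lower, Mmp8, Csf3r and Elane, and 1 was higher, Mmp9. Mmp8, a granule collagenase, had signals of 5677, 2635, 3102 and 6902, Csf3r, the receptor for G-CSF, of 349.6, 131.8, 126.8 and 287.1, and Elane, neutrophil elastase, of 158.8, 27, 30.2 and 128.5. The summed signal of the neutrophil list was 11203, 6018, 7702 and 11379.5. The part of these cell types in the lower genes was not tested.

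Fabp4, a fatty acid carrier of macrophages and fat cells, had signals of 448.8 with live and 377.2 with irradiated tumour cells, 1909 in conditioned medium and 4012 in the control. Conditioned medium lay below the control and the cocultures lay lower again, with 3 other probe sets between -1.39 and -2.21. Lpl, which frees fatty acids from lipoproteins, had signals of 7952, 2867, 1827 and 6674, and Mylip, which targets the LDL receptor for degradation, of 535.2, 271.5, 412.5 and 835.6. These were the 3 of 21 genes of lipid handling called, all lower. Cd5l, a secreted macrophage protein that binds lipids, had the largest smaller fold of the lower genes, with signals of 75 with live and 51.7 with irradiated tumour cells, 553.4 in conditioned medium and 247.2 in the control. Ahrr, a repressor of the aryl hydrocarbon receptor, had signals of 217.4, 43.2, 56.8 and 328.4. Bcl6, a transcriptional repressor, had signals of 322.1, 95.3, 154.8 and 524.8, and its other probe set gave log2 ratios of -0.86 and -1.48. Slamf7, a receptor of immune cells, had signals of 283.3, 75.2, 55.3 and 310. Slc46a3, a lysosomal transporter, had signals of 406.2, 76.4, 75.5 and 325.6. Kcna7, a potassium channel, had signals of 21.6, 19.1, 13.1 and 162.8 and was above the floor only in conditioned medium.

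The live and irradiated cocultures were also set against each other among the called genes. Since the rule used both coculture signals and removed genes in which they disagreed, their likeness is partly fixed by it. The 2 signals lay within 1.5-fold of each other in 202 of the 224 higher genes (90.2%) and in 84 of the 94 lower genes above the floor in at least 1 coculture (89.4%), beside 93.3% of 11918 such genes overall. In the remaining 20 lower genes both signals were at or under the floor and cannot be compared. Over all genes 0.368% were at least 2-fold higher in the live than in the irradiated coculture and 0.302% at least 2-fold lower. Of the higher genes 3 were at least 2-fold apart towards live cells and 3 towards irradiated cells, and of the lower genes 1 was, towards irradiated cells. The live coculture was higher for Nr4a1, 1436 against 678, for Nrxn3, a synaptic adhesion protein, 349.9 against 162.4, and for the brightest probe set of Egr3. The other probe set of Egr3 gave 50.2 with live and 60.7 with irradiated cells, so no direction is given for it here either. The live coculture was also the higher one, by just under 2-fold, for Il1a, 870.1 against 448.1, and for Maff.

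The irradiated coculture was higher for Ackr3, 657.8 against 325.4, for Slc25a15, a mitochondrial ornithine carrier, 574.2 against 268.3, and for Gsta4, a glutathione transferase that removes lipid peroxides, 213.8 against 101.9. Tnfrsf9, the costimulatory receptor 4-1BB, lay just under 2-fold at 1371 against 685.7, and its other probe set differed from conditioned medium by log2 ratios of 2.08 in the live and 3.31 in the irradiated coculture. Acpp, an acid phosphatase, was the lower gene with the widest gap, with signals of 551.4, 179.9, 395.6 and 878.2. Genes of DNA replication, of which only Fen1 was called, had a median log2 ratio of live to irradiated of 0.53, and genes of mitosis of 0.40.

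Probe sets that were not used to represent a gene measure the same RNA on the same arrays. For the higher genes, 204 such probe sets of 106 genes were above the floor on at least 1 array compared. Of these 107 were at least 2-fold higher on both arrays and 171 above 0 on both, while 5 were below 0 on both (Egr3, Fen1, Igfbp7, Nfkbiz and Tsc22d1). For the lower genes, 60 probe sets of 43 genes were available, of which 20 were at least 2-fold lower on both arrays and 56 below 0 on both, with the 1 opposite probe set in Xaf1. Over all genes, those of the called genes included, 185 of 9336 such probe sets were higher by the rule and 96 lower. The share above or below 0 on both arrays was not computed over all genes, so those counts have no background beside them.

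The threshold itself divides close values. Just inside it lay Ajuba, a LIM domain scaffold (22.9, 88.6, 112.8 and 25.4), Cdc42ep1, an effector of CDC42 (14.9, 108.1, 90.4 and 45.2), and Mthfs, a folate enzyme (71.3, 120.1, 129.7 and 59.9), and just outside it Slc15a3, a peptide transporter (3232, 2617, 2670.4 and 1309.7), Snx18, a sorting nexin (513.9, 1353, 1646 and 677.1), and Dcstamp, a fusion protein of myeloid cells (141.3, 145.4, 96.5 and 48.3). On the lower side Haspin, a mitotic kinase (54.7, 60.6, 23 and 122), Mndal, an interferon-inducible nuclear protein (1159.6, 818.9, 975.2 and 1965), and Vwf, von Willebrand factor (438.5, 71.7, 74.7 and 150.6), were just inside. Ppm1k, a mitochondrial phosphatase (106.7, 84.8, 80.7 and 169.3), Nxpe4 (67.1, 21.6, 46.6 and 93) and Cmpk2, an interferon-induced nucleotide kinase (49, 32.5, 46.4 and 92.6), were just outside.

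The 41 gene lists, some of which share members, together held 79 of the 224 higher and 36 of the 114 lower genes, and 8 lists had no called member. Lists not yet named held at most 2 called members in either direction. Over all genes 1.23% were called higher and 0.627% lower. Higher were 2 of 12 genes of arginine and polyamine metabolism (Odc1 and Slc7a2), 2 of 20 p53 targets (Plk2 and Plk3, polo-like kinases), 1 of 14 heat shock proteins (Hsph1), 1 of 16 NRF2 antioxidant genes (Me1, malic enzyme) and 2 of 24 macrophage activation markers (Trem1 and Cd14). Of 16 genes of prostaglandin and adenosine metabolism, Ptgs2 and Nt5e were higher and 2 were lower, Hpgds, prostaglandin D synthase (72.3, 57.2, 55.1 and 119.1), and Ptgir, the prostacyclin receptor (392.9, 169, 142.2 and 404.8). Of 23 integrins and adhesion genes, Itga3 was higher (62.9, 368.2, 325.4 and 87.3) and Itgb3 lower (177.4, 6.7, 26.9 and 97.6). Irf7 was the 1 called gene of 10 plasmacytoid dendritic cell markers, Vwf of 12 endothelial markers and Slfn8 of 8 Schlafen genes, all lower. Among 18 matrix metalloproteinases and their inhibitors, Mmp9 was higher and Mmp8 lower. Among the 8 lists with none, oxidative phosphorylation (36 genes) had medians of -0.14 and -0.09, cholesterol and fatty acid synthesis (26 genes) -0.18 and -0.31, and the amino acid and endoplasmic reticulum stress response (31 genes) 0.32 and 0.00. Of 17 lymphocyte and natural killer cell markers none was called, and the summed signal of this list was 737.9, 529.6, 634.8 and 672.9.

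**Figure D5:**
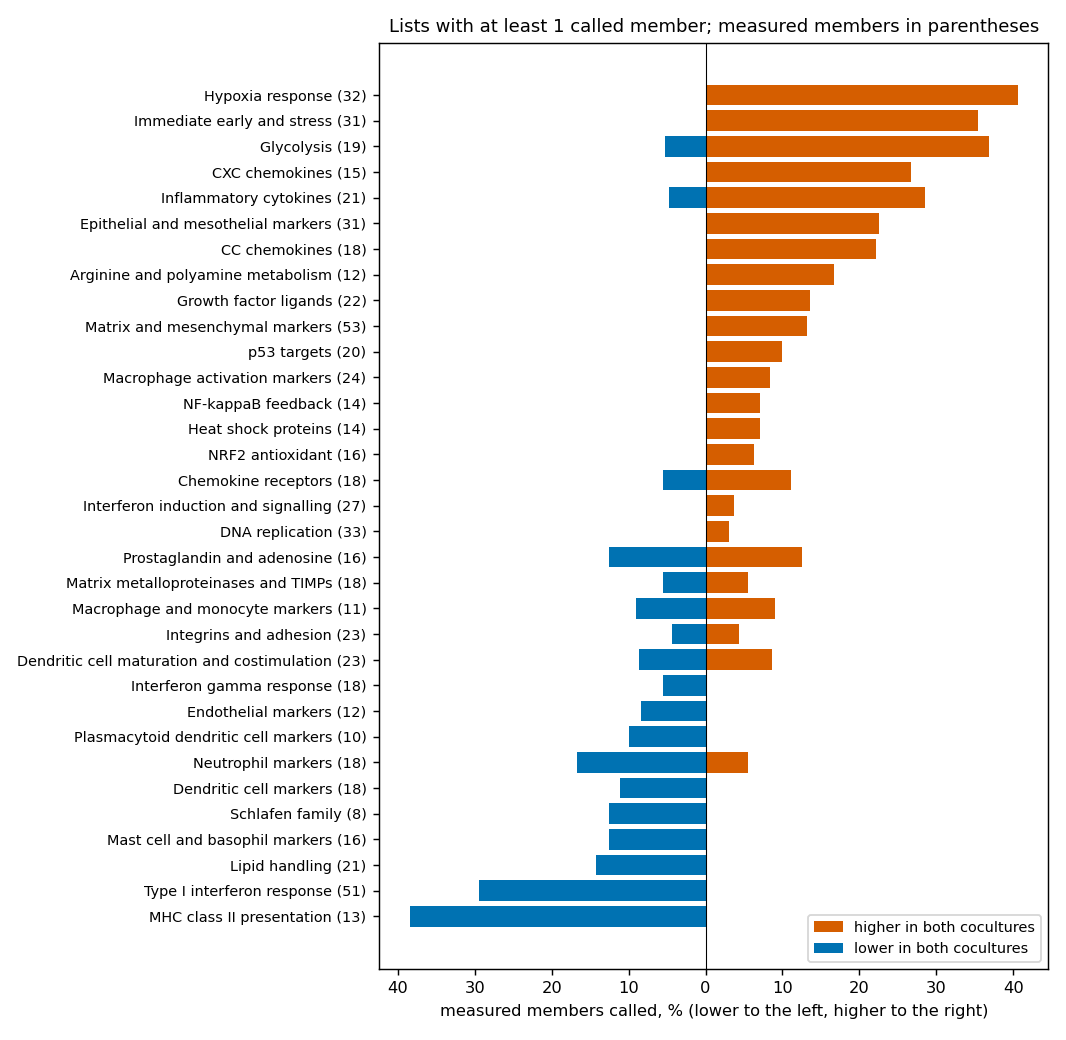
Share of the measured members of each list that was called, in percent, with higher members to the right and lower members to the left; the number of measured members stands in parentheses and lists without a called member are left out. Hypoxia response, with 13 of 32 members higher, and MHC class II presentation, with 5 of 13 lower, are at the ends, beside 1.23% and 0.627% over all genes.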

How the data were processed

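RNA of 4 samples of mouse BMDC, 1 per condition, was measured on Affymetrix arrays. The values are intensities deposited by the authors in the series table, MAS5 signals made with GCOS 1.4 per the submitters' processing notes; the scaling target is not given in the sources used here. The log2 ratios and folds were computed from the deposited signals. Of 45037 probe sets other than controls, 34945 had 1 gene in the platform annotation and 10092 had none or several and were left out. Of the former, 34741 matched RefSeq by Entrez ID and took its current symbols. The brightest probe set by mean signal represented a gene. Signals under 44.3, the median over all arrays, were raised to it. A gene was called where both log2 ratios to conditioned medium were at least 1 or at most -1.

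With 1 array per condition there was no test, and precision is limited by that number. The genes and the 41 lists were chosen with earlier results of these data known. Genes were ranked by the smaller of the 2 ratios, and named were the 15 highest and 15 lowest, up to 5 called members of each list, the 3 nearest the threshold on each side in each direction, the 5 with the largest differences between live and irradiated coculture in each direction, and 8 genes of the study's pathway. Named in addition, chosen after their values were seen, were the called genes Ankrd37, Cdh1, Col4a1, Dcn, Ddx60, Egln1, Ero1a, Fosl2, Ifit3, Il1b, Il1rn, Klf6, Mx1, Oas3, P4ha1, Pdk1, Plod2, Rsad2, Slc2a3, Tjp1, Tpi1, Trem3, Usp18, Xaf1, Ahr, Tiparp and Cyp1b1. Also chosen so were Npy, Oas1c and the uncalled Adm, Arg1, Car9, Cd74, Csf1r, Egr1, Epcam, H2-Aa, Hif1a, Ifih1, Itgax, Oas1a, Oasl1, Krt7, Lyz2, Msln, Pgk1 and Rtel1. Alternatives were other floors, a pseudocount, quantile normalization, median centring, the mean over probe sets, a 3-fold threshold and a filter on dim genes. Of 955 list entries, 81 were not matched and not analysed here. The ratio and calling code was tested on simulated data. Python 3.11.15 with numpy 2.4.6 and pandas 2.3.3 was used.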

Additional observations from a re-analysis of the deposited data

Results flagged for a closer look

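In 3 called genes conditioned medium and the cocultures lay on opposite sides of the control, each at least 2-fold from it. All of these ratios share the 1 control array, and the difference was not tested. Cd5l, a secreted macrophage protein that binds lipids, had a log2 ratio to the control of 1.16 in conditioned medium, -1.72 in the live and -2.26 in the irradiated coculture. Dusp5, a phosphatase of MAP kinases, had -1.07 in conditioned medium, 1.38 in the live and 1.21 in the irradiated coculture. Plk3, a stress-responsive kinase, had -1.06 in conditioned medium, where its signal of 43.9 lay under the floor, 1.26 in the live and 1.09 in the irradiated coculture. None of the 3 had a further probe set above the floor.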

How the results depend on the processing

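No paired analysis was possible because each condition has 1 array, and for the same reason no replicate could be left out. The counts of 224 higher and 114 lower genes became 500 and 304 with a floor at the 25th percentile of the signals (12.9), 111 and 51 with a floor at the 75th percentile (155.6), and 81 and 21 at 3-fold. A pseudocount in place of the floor gave 170 and 61. Quantile normalization (226 and 118), median centring (223 and 109), the mean over probe sets (161 and 87) and a filter on genes above the floor on the 3 arrays (173 and 85) changed the counts by less than 1.5 times. Of the main calls, 216 and 112 were shared under quantile normalization, 217 and 107 under centring, 149 and 81 under the mean over probe sets and 159 and 56 under the pseudocount. Of 112 called genes named by the rule, 43 met it under every setting, 73 at the higher floor and 63 at 3-fold, and none turned direction. H2-Ab1 lost its call with the pseudocount and with centring, and the class II count fell from 5 to 3 at the higher floor and with the pseudocount, and to 0 at 3-fold. Epithelial and mesothelial markers numbered 13 at the lower and 3 at the higher floor in place of 7, and matrix markers 13 and 1 in place of 7. At 3-fold the interferon genes numbered 7 in place of 15 and the hypoxia genes 7 in place of 13. These settings do not replace replicates. Genes with conditioned medium under the floor have only a lower bound.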

Other observations

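Genes around the aryl hydrocarbon receptor, a sensor of foreign aromatic compounds and tryptophan metabolites, were called in both directions; they were picked after their values were seen and no list was fixed for them. Ahr, the receptor, had signals of 818.8 with live and 1197 with irradiated tumour cells, 230.1 in conditioned medium and 110 in the control. Tiparp, a target gene that restrains the receptor, was measured at 547.4, 1431, 1264 and 619.7, ordered control, live, irradiated and medium, and Cyp1b1, a target that oxidises aromatic compounds, at 49, 259.2, 314.5 and 96.1. All 3 were highest in the cocultures, at 3.56-fold and 5.20-fold over conditioned medium for Ahr. The repressor Ahrr was lower by the same rule, with signals of 217.4, 43.2, 56.8 and 328.4. Other probe sets of Ahr gave log2 ratios of 0.99 and 1.06, those of Tiparp between 1.10 and 1.53, and those of Cyp1b1 0.86 and 1.23 at one and 0.08 and 0.00 at another.

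Some called genes were next to each other in RefSeq order on GRCm38.p6. Of 16451 neighbouring pairs of measured genes, 9 had both members higher, 4 both lower and 1 was opposite. The higher pairs were Osm and Lif, Ccl2 and Ccl7, Krt8 and Krt18, Il1a and Il1b, Cxcl1 and Cxcl2, Trem1 and Trem3, Col4a1 and Col4a2, Col4a2 and Rab20, and Myo1d and Tmem98. The lower pairs were H2-Ob and H2-Ab1, Ifit2 and Ifit3, Oas2 and Oas3, and Clec4a3 and Clec4b1.

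Genes of DNA replication were below conditioned medium in 25 of 33 cases in the live and 30 of 33 in the irradiated coculture, with median log2 ratios of -0.23 and -0.75. For 29 genes of mitosis the medians were -0.14 and -0.49. Against the control, the replication genes had medians of 0.57 in the live and 0.05 in the irradiated coculture and 0.76 in conditioned medium. In the same order, those of the mitosis genes were 0.75, 0.37 and 0.79. Npy, a neuropeptide, was called higher although the cocultures did not exceed the control, with signals of 1036, 863.1, 643.8 and 245.3. Of 10092 probe sets with no or several genes, 52 were higher and 61 lower by the same rule.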
